A study of Drosophila melanogaster with 4 samples.

Results

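A gene was taken as a member here when its symbol had 15 or more FlyBase transcripts in the deposited values, whatever their level. This held for 54 of 14029 genes, and these 54 genes carried 1105 of the 30090 transcripts (3.67%). Their transcript number had a median of 18, and 10 of them had exactly 15 while another 12 genes stopped at 14. The largest numbers were 75 for Dscam1, 59 for para, 31 for Svil, 27 for mod(mdg4) and 25 for lola.

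RNA was sequenced from whole male larvae of the third instar of Drosophila melanogaster carrying a duplication of Inr-a (Pcf11), and from wild type males of the Canton S stock, in order to see how an added copy of this gene acts on the rest of the genome. The Inr-a duplication larvae had a Canton S mother and a father of the genotype w[a]; Pcf11Dup/CyO GFP, with the GFP balancer progeny set aside, and the wild type larvae were taken from the Canton S stock itself. The duplication and the genetic background that came with it therefore cannot be told apart. Each genotype had 2 libraries of pooled larvae, grown at 25 °C, and the authors deposited 1 mean CPM (counts scaled to the library total) for each transcript and genotype. Counts for each library were worked out from these means, and A names the deeper and B the shallower library of a genotype, with no link to the numbers in the labels. The study and its labels call the libraries of a genotype biological replicates, and the p-values measure the spread between these 2 libraries.

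Genes with many transcripts make them from alternative promoters, alternative exons and alternative 3′ ends. In flies they are known mostly from muscle and nerve, where a single gene often serves several kinds of cell with different protein forms. Pcf11 is a subunit of the machinery that cleaves pre-mRNA at its 3′ end and helps RNA polymerase II to terminate. Total level and the division of a gene among its transcripts are separate quantities, so they were examined separately, the second as each transcript's share of the counts of its gene.

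The library totals were 15423445 and 14084653 counts in the Inr-a duplication (A and B) and 12558720 and 11304266 counts in wild type (A and B). Pcf11 itself had 83.3 and 95 CPM in the Inr-a duplication, against 60.4 and 58.0 CPM in wild type, with a log2 difference of 0.62 (standard error 0.26, adjusted p = 0.180 in limma). The libraries also differed in the levels of tissue markers. With members left out, 10 muscle marker genes summed to 3189 and 5381 CPM in the Inr-a duplication, against 2217 and 1744 CPM in wild type, and all 10 were higher. For 13 neuron markers the sums were 219 and 305 CPM in the Inr-a duplication and 206 and 226 CPM in wild type, and for 15 testis markers 537 and 518 CPM in the Inr-a duplication and 805 and 805 CPM in wild type. The sums were further apart for 6 genes of the epidermis and cuticle, at 3756 and 4525 CPM in the Inr-a duplication and 824 and 1011 CPM in wild type (4 of 4 tested higher, 2 called). For 5 midgut genes they were 3116 and 2420 CPM in the Inr-a duplication and 1833 and 1844 CPM in wild type (4 of 5 higher, 1 called), and for 2 fat body genes 959 and 779 CPM in the Inr-a duplication and 718 and 698 CPM in wild type. These sums leave out abundant markers whose counts per library could not be recovered. With all 8 listed epidermis and cuticle genes, the deposited means summed to 15649 CPM in the Inr-a duplication and 6835 CPM in wild type. In the same order they summed to 18524 and 11648 CPM for 8 midgut genes and to 76679 and 66078.5 CPM for 8 fat body genes. For 11 muscle genes they summed to 5641 and 2528 CPM. No marker of these lists was at 0. Their part in the results was not tested, and in RNA from whole larvae more cells of a type and more RNA per cell cannot be told apart.

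Few of the annotated transcripts carried the counts. Of the 1105 transcripts, 466 (42.2%) were listed at 0 in both genotypes, against 14.5% of all transcripts in the deposited values. Another 70 were at 0 in the Inr-a duplication only and 137 in wild type only, which left 432 above 0 in both. Among the 48 members with a mean of at least 5 CPM, a median of 5 transcripts held 5% or more of the gene. The effective number of transcripts, which is the inverse of the summed squared shares, had a median of 3.97 and 4.20 in the Inr-a duplication and of 4.04 and 3.33 in wild type. For other genes of 2 or more transcripts these medians lay between 1.48 and 1.52. A single transcript held 50% of the counts in 10 of the 48 members, 2 together did so in 31, and 3 or more were needed in 7.

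The members ranged from Tm1, where Tm1-RM alone held 84.2% and 80.7% in the Inr-a duplication and 86.1% and 86.3% in wild type, to mod(mdg4) and lola. Both of these encode BTB-domain chromatin and transcription factors whose transcripts join a common 5′ part to one of many alternative 3′ parts. In mod(mdg4) the effective number was 14.4 and 12.9 in the Inr-a duplication and 13.9 and 14 in wild type, and in lola it was 11.3 and 11.9 in the Inr-a duplication and 11.0 and 9.81 in wild type. No transcript of mod(mdg4) reached a mean of 15% in either genotype. Dscam1, a neuronal cell surface receptor known for its very large splicing variety, did not reach such numbers. It had 75 transcripts, of which 53 were at 0 in both genotypes. Counts could be assigned only to these listed transcripts, so the effective number does not measure its full splicing variety. Its effective number was 4.65 and 4.37 in the Inr-a duplication and 3.58 and 3.72 in wild type, near the medians of the members. These values rest on only 245 and 267 counts in the Inr-a duplication and 202 and 89 counts in wild type. The voltage-gated sodium channel gene para, with 59 transcripts, had only 6 and 12 counts in the Inr-a duplication and 7 and 2 counts in wild type, so its shares cannot be read.

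These shares rest on how the authors' software Salmon divided reads among overlapping transcripts. Of the 1096 member transcripts found in the annotation, 559 (51.0%) had neither an exon base nor a splice junction of their own. Of those 559, 308 (55.1%) were at 0 in both genotypes, against 153 (28.5%) of the 537 with a base or junction of their own. A zero in the values therefore means only that no counts were assigned. Between libraries of 1 genotype, the transcripts at 5% or more in members of at least 20 CPM differed by a median of 5.26 percentage points where nothing was their own and by 4.34 points elsewhere.

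At the level of whole genes the members were mostly higher in the Inr-a duplication. Of the 53 that passed the filter on low counts (all but para), 49 had a positive log2 difference (92.5%, against 51.5% of the 11540 genes tested), with a median of 0.57 against 0.02 for all genes. Past an adjusted p of 0.05 in limma, 2 of the 53 were higher, namely Mhc and trol, and 0 were lower, while 2.23% of all genes tested were called, 1.72% higher and 0.503% lower. With the p left unadjusted, 23 members passed 0.05 with a higher level and 0 with a lower one, against a background of 12.2% and 8.61%. By library size alone this count of 23 was 15 (28.3% of the members), where 19.4% of all genes passed in either direction. It was also smaller when library B of either genotype was left out, and so was the share of all genes that passed. The groups were separate, with the Inr-a duplication above wild type, in 22 of the 53 members (22.9% of all genes), and with it below in 2 (30.3% of all genes). Separation was judged on CPM by library size. The log2 differences were also scaled by TMM, with factors of 0.94 and 1.04 in the Inr-a duplication (A and B). With 1 library left out, where fewer libraries are compared, members with separate groups and the Inr-a duplication above numbered between 23 and 47. Over all genes the share then lay between 26.8% and 43%.

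The libraries did not contribute equally to this. In CPM by library size, Inr-a duplication library B was the highest of the 4 for 46 of the 53 members, and wild type library B was the lowest for 42, whereas over all genes these libraries were highest and lowest for 39.6% and 28.0%. After TMM scaling, the members' median log2 distance from the mean of the 4 libraries was 0.01 and 0.53 in the Inr-a duplication (A and B). It was -0.11 and -0.46 in wild type. When library B of the Inr-a duplication was left out, the members had a median of 0.26, with 46 of 53 positive. The median of the members was 0.74 without Inr-a duplication library A, 0.68 without wild type library A and 0.37 without wild type library B. In these settings the median of all genes lay between -0.01 and 0.01. With 2 libraries on each side, the smallest two-sided p of an exact permutation test is 0.333 for any single gene, so the calls rest on the spread that limma shares across genes.

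**Figure D1:**
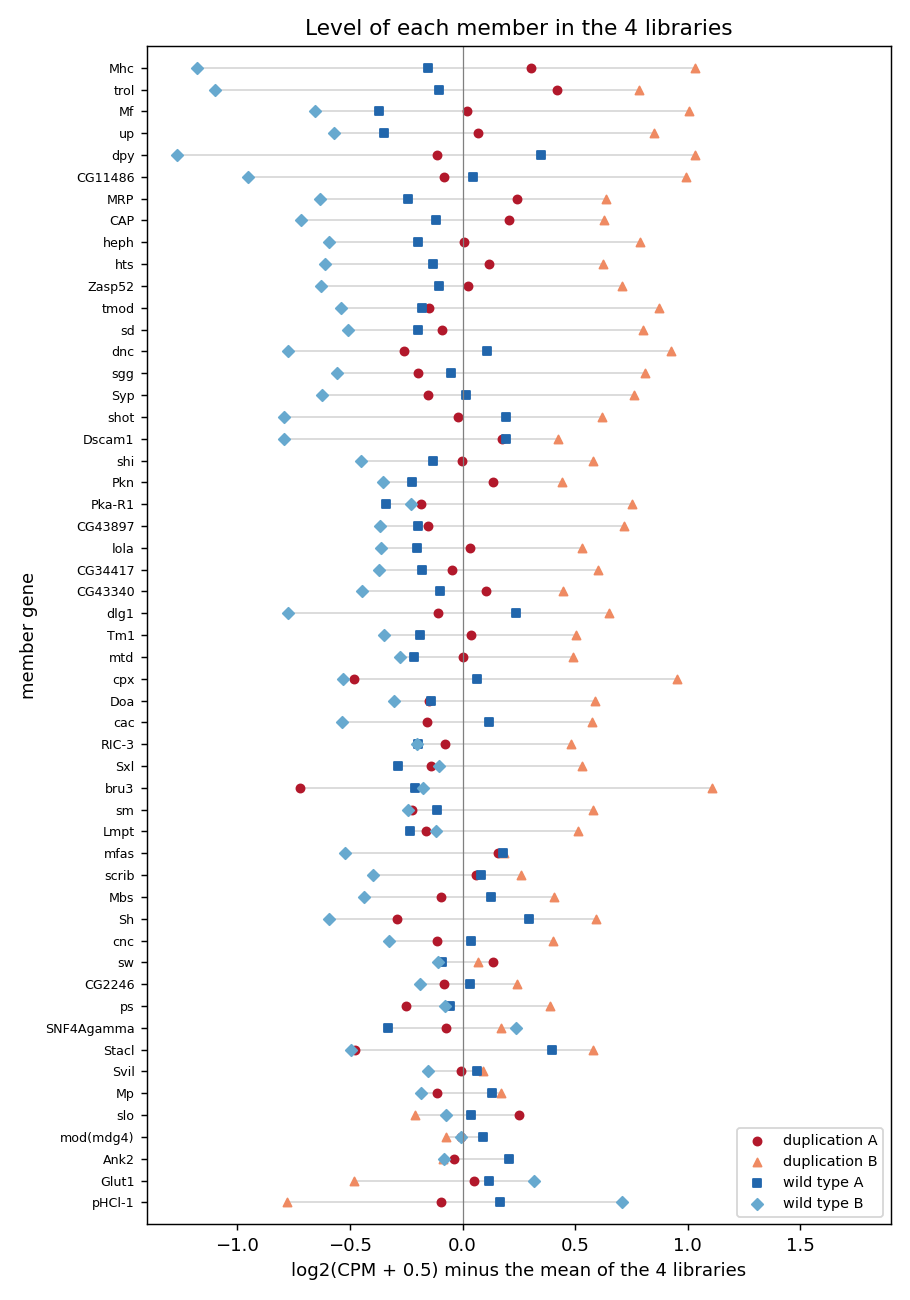
Level of each of the 53 members that passed the filter, as log2(CPM + 0.5) minus the mean of the 4 libraries (x axis), with a symbol for each library of the Inr-a duplication (A and B) and of wild type (A and B) and members ordered by their log2 difference. Inr-a duplication library B is the highest symbol for 46 members and wild type library B the lowest for 42, and Mhc and trol stand at the top.

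Genes of the sarcomere, the contractile unit of muscle, were among the members with large differences. All 6 members on this list were higher in the Inr-a duplication, 5 of them at an unadjusted p below 0.05 and 1 past the threshold, with a median log2 difference of 0.81. Mhc (FBgn0264695, chromosome 2L, 16766566 to 16788766 in BDGP6.54), the only gene for the heavy chain of muscle myosin in the fly, had 320 and 530 CPM in the Inr-a duplication, against 233 and 114 CPM in wild type. The means were 425 ± 149 CPM in the Inr-a duplication and 173 ± 83.8 CPM in wild type (SD, n = 2 each). The groups were separate, and the log2 difference was 1.36 (standard error 0.32, adjusted p = 0.0204 in limma). Without wild type library B it was 0.84 with an adjusted p = 0.292. Scaled by library size alone it was 1.33 (adjusted p = 0.108), and without the filter on low counts 1.37 (adjusted p = 0.194), so the call was lost at nearly the same difference.

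The other sarcomere members lay in the same direction without passing the threshold. Tm1, which encodes tropomyosin and had the highest level of all members, stood at 754 and 1042 CPM in the Inr-a duplication and 645 and 577 CPM in wild type (log2 difference 0.57, standard error 0.29). The troponin T gene up had 238 and 409 CPM in the Inr-a duplication and 178 and 152 CPM in wild type. Its groups did not overlap, and the log2 difference was 0.95 (standard error 0.28, adjusted p = 0.0699). Zasp52, a Z-disc scaffold, tmod, which caps the pointed ends of actin filaments, and CAP, an adaptor at muscle attachments, had log2 differences of 0.76, 0.75 and 0.87. Myofilin, the thick filament protein encoded by Mf, was outside the sarcomere list and had 169 and 336 CPM in the Inr-a duplication and 129 and 106 CPM in wild type, with a log2 difference of 1.06 (adjusted p = 0.0537).

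The same list holds muscle genes that are not members. Of 23 tested, 18 were higher in the Inr-a duplication, 2 were called higher and 1 lower, and their median log2 difference was 0.80. The summed muscle markers given above also ordered the libraries as Mhc does, with Inr-a duplication B highest and wild type B lowest.

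The second gene past the threshold was trol (FBgn0284408, X chromosome, 2470460 to 2545427), which encodes perlecan, a large proteoglycan of basement membranes. It had 166 and 214 CPM in the Inr-a duplication, against 115 and 57.7 CPM in wild type. The groups did not overlap, and the log2 difference was 1.23 (standard error 0.30, adjusted p = 0.0256 in limma). Without wild type library B it was 0.72 with an adjusted p = 0.377, by library size alone it was 1.20 with an adjusted p = 0.108, and without the filter on low counts it was 1.24 with an adjusted p = 0.194. Dscam1, the other member among adhesion genes and receptors, had 15.9 and 19.0 CPM in the Inr-a duplication and 16.1 and 7.87 CPM in wild type, so its groups overlapped. Among the 86 tested adhesion genes with fewer than 15 transcripts, 77 were higher in the Inr-a duplication, with a median log2 difference of 0.63.

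The remaining roles had smaller and less separate differences. Of 8 members of the cytoskeleton and of trafficking, 7 were higher in the Inr-a duplication and 4 at an unadjusted p below 0.05, with a median of 0.55. They include hts, the fly adducin that links actin to the membrane, which had 51.9 and 73.8 CPM in the Inr-a duplication and 43.6 and 31.1 CPM in wild type. The exception among the members was Ank2, an ankyrin of axons and synapses, at 75.1 and 72.5 CPM in the Inr-a duplication and 88.9 and 72.8 CPM in wild type (log2 difference -0.09). The dynein intermediate chain gene sw stood at 115 and 110 CPM in the Inr-a duplication and 98.7 and 97.5 CPM in wild type, a small difference of 0.23 in which the libraries of each genotype lay close together.

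All 7 members on the list of kinases, phosphatases and their partners, which leaves out Pkn, were positive, 2 of them at an unadjusted p below 0.05, with a median of 0.57. The polarity scaffold scrib had 86.4 and 99.5 CPM in the Inr-a duplication and 88.0 and 62.8 CPM in wild type, and the splicing-factor kinase Doa had 71.1 and 119 CPM in the Inr-a duplication and 71.5 and 63.8 CPM in wild type. In both genes the groups overlapped. All 6 RNA-binding members were positive too, with a median of 0.41. The polypyrimidine tract binding protein heph had 94.7 and 163 CPM in the Inr-a duplication and 82.1 and 62.4 CPM in wild type (log2 difference 0.82, adjusted p = 0.109), while Syp, an hnRNP of neurons and the neuromuscular junction, had 148 and 280 CPM in the Inr-a duplication and 167 and 107 CPM in wild type.

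Among 4 transcription and chromatin factors, 3 were positive. Of these lola and sd, the partner of Yorkie in growth control, had an unadjusted p below 0.05, and mod(mdg4) had 143 and 137 CPM in the Inr-a duplication and 153 and 143 CPM in wild type. The list of ion channels and transporters, which leaves out Glut1, was mixed, with 4 of 5 tested members positive. The negative one on it was the chloride channel pHCl-1, at 0.648 and 0.213 CPM in the Inr-a duplication and 0.876 and 1.5 CPM in wild type. MRP, an ABC transporter, had 36.4 and 48.0 CPM in the Inr-a duplication and 25.9 and 19.6 CPM in wild type (log2 difference 0.91, adjusted p = 0.0731). The calcium-activated potassium channel slo did not separate, at 28.0 and 20.2 CPM in the Inr-a duplication and 24.1 and 22.3 CPM in wild type. Outside the lists, Svil, the fly supervillin and the third highest in level, had 274 and 293 CPM in the Inr-a duplication and 288 and 248 CPM in wild type. The sugar transporter Glut1 was the fourth member with a negative log2 difference, beside Ank2, mod(mdg4) and pHCl-1, at 98.5 and 67.9 CPM in the Inr-a duplication and 103 and 119 CPM in wild type.

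The level difference grew with the number of annotated transcripts. Its median on the log2 scale was 0.57 for the members, 0.43 for the 159 genes with 10 to 14 transcripts, 0.36 for 881 genes with 5 to 9, 0.06 for 5190 genes with 2 to 4 and -0.09 for 5257 genes with 1. Genes with many transcripts are also long, and length moved with the difference as well. Among genes with fewer than 15 transcripts, the median was -0.16 where the longest transcript was under 2000 bases, 0.13 from 2000 to under 4000 bases, 0.38 from 4000 to under 6000, 0.47 from 6000 to under 8000 and 0.44 from 8000 on. Within the same length classes the members had medians of 0.57 (2 genes, under 2000 bases), 0.43 (7 genes, 2000 to under 4000 bases), 0.60 (10 genes), 0.57 (13 genes) and 0.50 (21 genes, 8000 bases or more). No test separated transcript number from length.

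**Figure D2:**
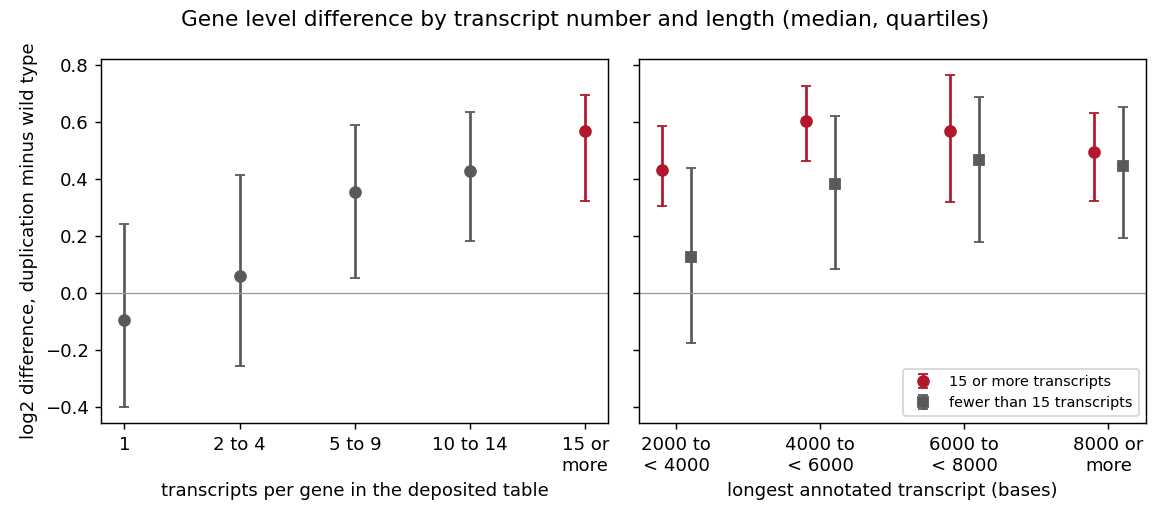
Left, log2 difference (Inr-a duplication minus wild type, y axis) by number of transcripts per gene, and right, by length of the longest annotated transcript in bases for genes with 15 or more transcripts (circles) and with fewer (squares). The class under 2000 bases is not shown. Symbols are medians over genes and bars the quartiles, and the medians run from -0.09 for genes with 1 transcript to 0.57 for the members, with the members at 0.50 and the others at 0.44 in the longest class.

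The division of counts among transcripts was then compared. Over the 12102 transcripts tested, 0 had an adjusted p below 0.05 in limma, in either direction, and so did 0 of the 224 that belong to members (percent called over all, 0). At an unadjusted p below 0.05 there were 22 member transcripts (9.82%), 10 with a higher and 12 with a lower share in the Inr-a duplication, against 8.29% of all transcripts tested (4.22% and 4.07% by direction). The count of 22 became smaller when library B of the Inr-a duplication was left out, while the share over all transcripts changed little. It became larger when wild type library A was left out, as did the share over all transcripts. With transcripts above a mean share of 95% left out of the test, which removes those that hold nearly the whole gene, 15 of the 224 were below 0.05 (6.70%) against 6.59% of all. The same 224 member transcripts were tested, so their count changed only through the spread that limma shares across transcripts. The unadjusted p of single transcripts given below come from the fit without this limit. Other forms of the test made a few calls. On log2 shares 95 transcripts (0.785%) were called, 2 of them among the 224 in members (0.893%), Syp-RF (adjusted p = 0.017) and slo-RF (adjusted p = 0.046), and limma's diffSplice called 133 (1.22%), 3 of them among 223 in members (1.35%), Syp-RF (adjusted p = 0.0073), Mhc-RE (adjusted p = 0.012) and Syp-RD (adjusted p = 0.030).

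The spread between libraries of 1 genotype was wide in these genes. As a measure of the distance between 2 libraries, the percentage of counts was taken that would have to change transcript to make their shares equal. Within the Inr-a duplication it had a median of 20.4% over the 48 members, within wild type 23.7%, and between genotypes 26.3%. For the 5334 other genes with 2 or more transcripts the medians were 6.61%, 7.22% and 8.96%. The mean distance between genotypes exceeded the mean distance within in 27 of the 48 members (56.3%) and in 37.3% of the other genes. Other genes with only 1 transcript above 0 have distances of 0 throughout and were kept. They lower this share, the medians above and the background that follows. Every distance between genotypes was above both distances within for 4 members (8.33%), Mhc, sd, Syp and tmod, where the background was 9.85% of 5382 genes. With 1 library left out, where fewer distances are compared, between 12 and 20 members met this.

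**Figure D3:**
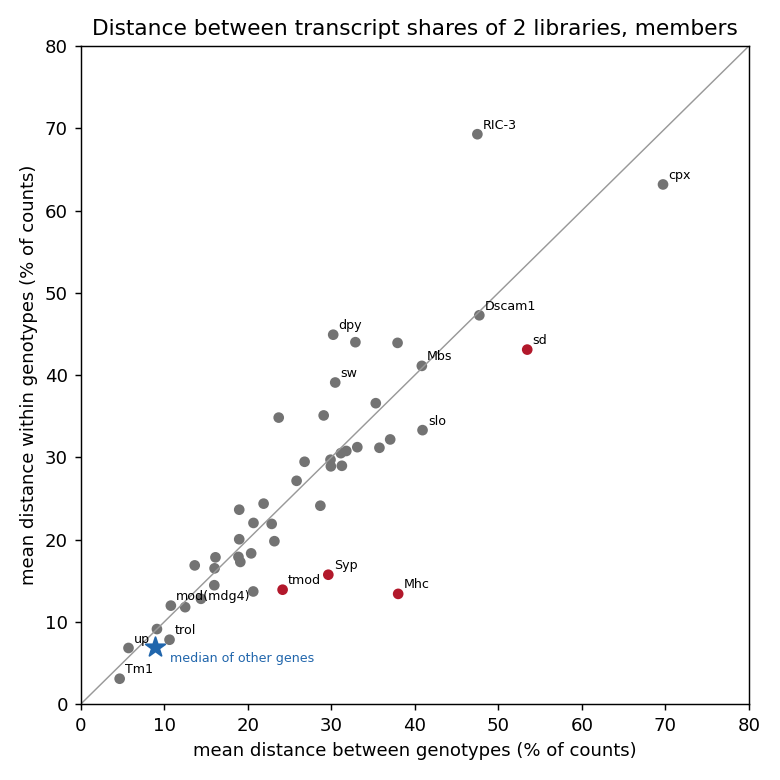
Mean distance between transcript shares of libraries of different genotype (x axis) and of the same genotype (y axis), in percent of the counts of the gene, for the 48 members with at least 5 CPM. The line marks equal distances, the star the median of the other genes (8.96% between genotypes), and Mhc, sd, Syp and tmod, in red, are the members in which every distance between genotypes exceeded both within.

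Mhc was the member with the widest gap between these distances. Its distance was 3.20% within the Inr-a duplication, 23.6% within wild type and between 29.4% and 46.1% between genotypes. All of its 6 main transcripts are 6671 bases long and differ only in which of several mutually exclusive exons they hold. Mhc-RD held 37.2% and 37.1% in the Inr-a duplication, against 16.7% and 0% in wild type. Mhc-RE was at 0 and 0 counts in the Inr-a duplication and at 407 and 353 counts (13.9% and 27.3%) in wild type, where 3 counts of the 12394 assigned to Mhc in the Inr-a duplication would be a share of 0.0242%. Mhc-RE has no exon base or junction of its own, so this zero means only that no counts were assigned. Mhc-RG held 8.09% and 7.69% in the Inr-a duplication and 19.99% and 16.7% in wild type (unadjusted p = 0.00542, adjusted p = 0.360). Mhc-RC, at 31.5% and 30.6% in the Inr-a duplication and 26.7% and 27.3% in wild type, and Mhc-RA, at 12.5% and 11.6% in the Inr-a duplication and 8.52% and 13.3% in wild type, differed least.

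The shares of transcripts that hold the same exon were also summed, which leaves aside how counts were divided among those transcripts. Over 14912 such alternative exons of all genes, a comparison chosen after the data were seen, 0 had an adjusted p below 0.05, and 30 of 559 in members (5.37%) had an unadjusted p below 0.05 against 6.51% of all. By direction, 16 had a higher and 14 a lower share, where the background was 3.54% and 2.97%. The count of 30 became smaller when library B of the Inr-a duplication was left out and larger when wild type library A was. The share over all exons moved in the same directions. Of these 30, 7 were in Mhc, 4 in cnc and 3 each in sd and Pkn, and exons of 1 gene are not independent. In Mhc the genotypes lay apart in 3 of the exon sets and were nearly equal in 2. In the set of 144-base exons, the upstream one (2L, 16769147 to 16769290) was in 42.0% and 40.0% of counts in the Inr-a duplication, against 62.4% and 74.6% in wild type, and the downstream one (16769459 to 16769602) held the rest. In the set of 171-base exons, the one at 16776263 to 16776433 was in 4.18% and 5.20% in the Inr-a duplication and in 17.4% and 27.3% in wild type. In the set of 118-base exons, the one at 16779093 to 16779210 was in 72.8% and 72.9% in the Inr-a duplication, against 46.9% and 27.3% in wild type, and the next one (16779728 to 16779845) in 23.1% and 21.0%, against 44.3% and 60.7%.

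The groups did not overlap for any of these exons, and their unadjusted p lay between 0.00366 and 0.00541, with the lowest adjusted p at 0.413. Leaving out either Inr-a duplication library raised each of these unadjusted p above 0.05. In contrast the leading exon of another set (16771343 to 16771446) was in 97.4% and 97.8% in the Inr-a duplication and in 98.0% and 96.7% in wild type, and the leading 79-base exon (16784251 to 16784329) was in at least 99.5% in every library. The exons of these sets encode parts of the myosin head and hinge, and their choice is known to differ among types of muscle in the fly. The muscle markers were also higher in the Inr-a duplication. They summed to 3189 and 5381 CPM in its libraries, where these exon shares were nearly equal. In wild type they summed to 2217 and 1744 CPM, where the shares lay further apart. Their part in this result was not tested.

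**Figure D4:**
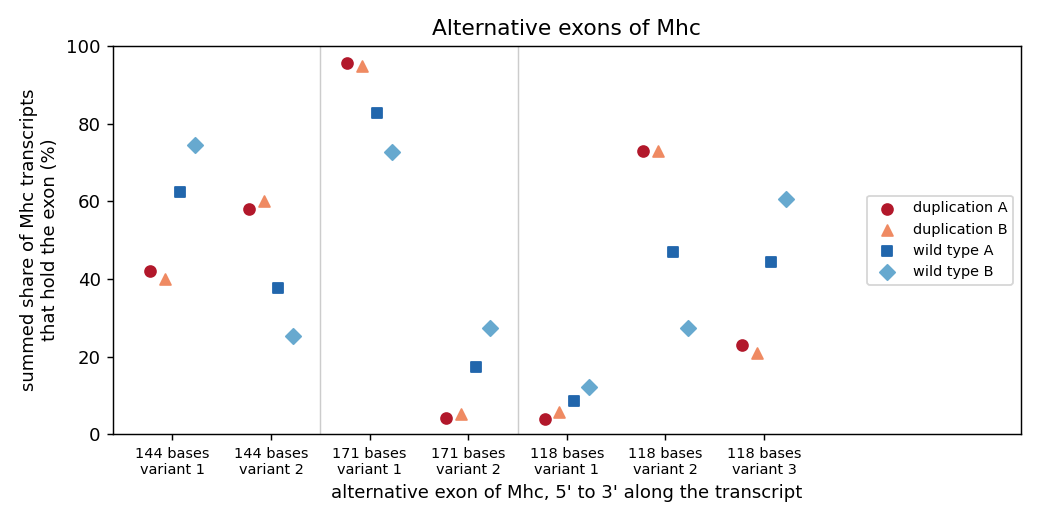
Summed share of the Mhc transcripts that hold an alternative exon (y axis, percent of the counts of Mhc) for the variants of the 144-base, 171-base and 118-base sets, in order along the transcript (x axis), with a symbol for each library of the Inr-a duplication and of wild type. The Inr-a duplication libraries lie close to each other and apart from wild type in each set, as for the second 118-base variant shown at 72.8% and 72.9% against 46.9% and 27.3%.

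In Syp the difference lay in a few transcripts. Syp-RF held 11.8% and 11.5% (271 and 455 counts) in the Inr-a duplication, against 0 and 0 counts in wild type, where 3 counts of 3304 would be 0.0908%. Syp-RF has no exon base or junction of its own, so this zero means only that no counts were assigned. It holds an exon (20782983 to 20783580) together with Syp-RL and Syp-RP. That exon was in 16.9% and 17.7% of counts in the Inr-a duplication and 10.1% and 9.01% in wild type. Syp-RF had the lowest unadjusted p of the member transcripts (0.000196, adjusted p = 0.201). Syp-RE went the other way, with 0 and 0 counts in the Inr-a duplication and 217 and 81 in wild type. Both are long forms, of 6794 and 6543 bases, and the leading Syp-RK overlapped between genotypes, at 32.5% and 48.4% in the Inr-a duplication and 41.6% and 46.4% in wild type. Of the 207 member transcripts at 0 in 1 genotype only, Mhc-RE, Syp-RF and Syp-RE were the 3 with 10 CPM or more in the other. An exon of Syp of 347 bases (3R, 20789986 to 20790332) was in 20.4% and 14.6% of counts in the Inr-a duplication and in 37.3% and 31.2% in wild type (unadjusted p = 0.0103).

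The leading transcript of sd, sd-RN, held 29.0% and 38.4% in the Inr-a duplication, against 55.9% and 71.1% in wild type (unadjusted p = 0.0376). Its counts were small, 81 and 184 in the Inr-a duplication and 118 and 108 in wild type. sd-RG was assigned 15 and 78 counts in the Inr-a duplication and 0 and 0 in wild type. In tmod, tmod-RQ held 19.97% and 22.4% in the Inr-a duplication and 31.6% and 31% in wild type (unadjusted p = 0.0227), while tmod-RA led in the Inr-a duplication and overlapped with wild type.

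Several other members had a transcript in which the genotypes were apart. slo-RF held 20.4% and 18.9% in the Inr-a duplication, against 3.30% and 3.57% in wild type (unadjusted p = 0.00494 in limma). It rests on 88 and 54 counts in the Inr-a duplication and 10 and 9 in wild type. slo-RF has no exon base or junction of its own. It holds a 106-base exon (24687800 to 24687905) together with slo-RR, slo-RS and slo-RT. That exon was in 22.0% and 29.1% of counts in the Inr-a duplication and 11.9% and 18.7% in wild type, a smaller contrast. The leading slo-RJ overlapped. In shi, the fly dynamin that pinches off endocytic vesicles, shi-RP held 40.9% and 36.6% in the Inr-a duplication and 22.1% and 27.5% in wild type, and shi-RG 19.6% and 17.3% in the Inr-a duplication and 35.1% and 29.6% in wild type, so that the leading transcript of the mean differed. In cnc, a bZIP factor of head development and of the response to oxidative stress, the transcripts with a 79-base exon (3R, 23209342 to 23209420) held 58.0% and 60.9% in the Inr-a duplication and 41.8% and 39.9% in wild type (unadjusted p = 0.00456). With any 1 library left out, its unadjusted p lay between 0.0199 and 0.0283.

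In Pkn, a protein kinase, the transcripts from the most upstream start held 66.6% and 60.9% in the Inr-a duplication and 41.1% and 49.4% in wild type (unadjusted p = 0.0314). For ps, the fly Nova-like splicing factor, ps-RB held 20.2% and 18% in the Inr-a duplication and 11.6% and 12.2% in wild type (unadjusted p = 0.0373), yet the distance within the Inr-a duplication was 36.8%. In CG11486 (PAN3 in the annotation, a subunit of a poly(A) nuclease) and in Mbs, which targets myosin phosphatase, the distances within genotypes, from 31.2% to 51.0%, overlapped those between, from 25.4% to 50.9%. PAN3-RK, for example, held 18.4% and 0% in the Inr-a duplication and 21.4% and 26.6% in wild type. In mtd, the fly OXR1, mtd-RF led throughout, with 25.2% and 31.8% in the Inr-a duplication and 23.1% and 38.2% in wild type.

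Other members differed less between genotypes in their division. In up, the 3 main transcripts up-RN, up-RA and up-RO held 35.7%, 32.7% and 25.5% in Inr-a duplication library A and 36.7%, 36.1% and 15.7% in library B, against 39.1%, 34.0% and 20% in wild type library A and 35.8%, 33.9% and 22.8% in library B. The distance between the genotype means was 3.62% in up, below the 9.88% between its Inr-a duplication libraries. It was 4.40% in Tm1, 6.71% in mod(mdg4), 8.40% in Svil and 9.27% in trol, where trol-RAG held 72.9% and 69.5% in the Inr-a duplication and 66.2% and 61.2% in wild type. For comparison, this distance was 34.6% in Mhc.

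**Figure D5:**
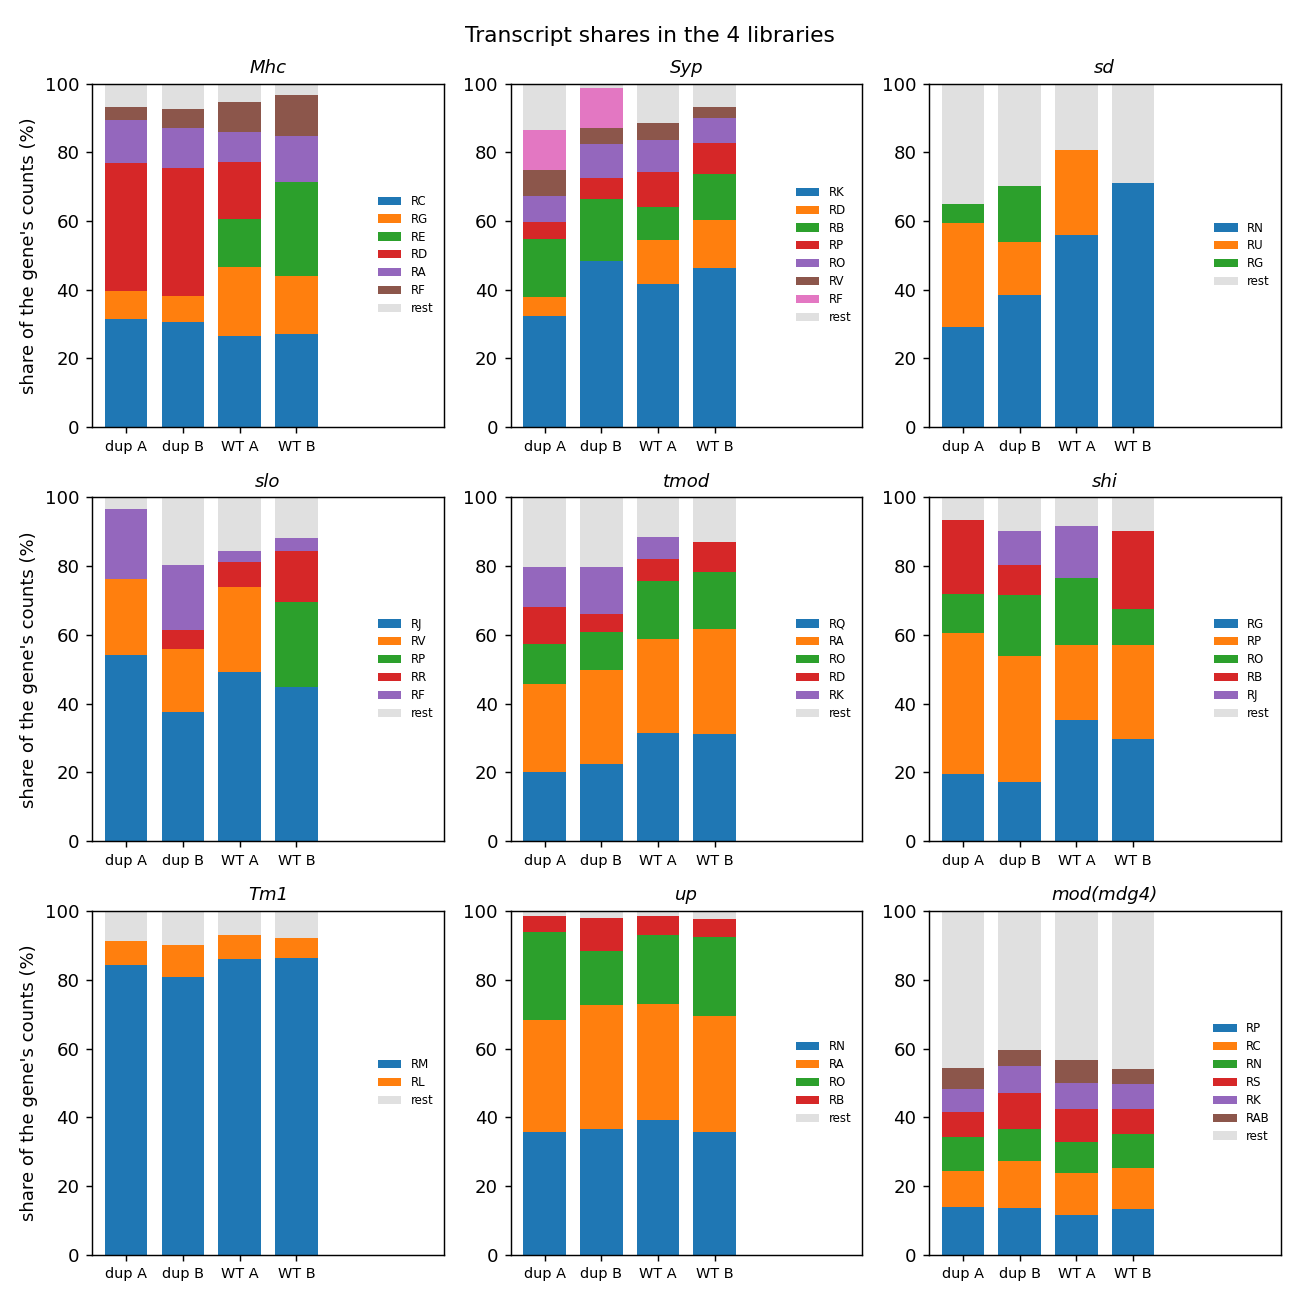
Share of the counts of each gene (y axis, percent) held by the transcripts with a mean share of at least 5%, in the libraries A and B of the Inr-a duplication (dup) and of wild type (WT), with the remaining transcripts in grey. Mhc-RE was assigned no counts in the Inr-a duplication and Syp-RF none in wild type, while in Tm1, up and mod(mdg4) the distance between the genotype means is 4.40%, 3.62% and 6.71%.

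The leading transcript, taken from the genotype means, was the same in 32 of the 42 members with at least 20 CPM. It differed in Mhc, Pkn, CG43340 (M7BP in the annotation), shi, tmod, scrib, hts, Ank2, Doa and Zasp52. These are shares of counts, and a longer transcript gives more counts per molecule. The leading transcript by counts therefore need not lead by molecules, as where lengths differ widely in Ank2. Leading transcripts were not compared per annotated length. The share test on shares per annotated length had 0 calls. In Zasp52 the first transcripts were close together. Zasp52-RR and Zasp52-RI held 42.6% and 50.4% against 44.9% and 34.9% in the Inr-a duplication, and 36.2% and 41.4% against 53.3% and 40.9% in wild type. Ank2-RX, a short form of 2261 bases, held 41.0% and 27.0% in the Inr-a duplication and 49.7% and 51.3% in wild type, while the long Ank2-RP of 13764 bases held 38.8% and 45.6% in the Inr-a duplication and 36.6% and 28.4% in wild type (unadjusted p = 0.0798 and 0.139). Over the 48 members, the same transcript led in all 4 libraries in 24.

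Because Pcf11 acts at 3′ ends, the transcripts of each gene were also grouped by their ends. The share of the most distal 3′ end could be tested in 32 members and 2121 genes, and 0 genes had an adjusted p below 0.05 (percent called 0). At an unadjusted p below 0.05 there was 1 member (3.12%), shi, against 5.56% of all genes (2.45% with a higher and 3.11% with a lower distal share). The distal end of shi held 41.9% and 36.6% in the Inr-a duplication and 23.6% and 27.5% in wild type (unadjusted p = 0.0486). The distal share was higher in the Inr-a duplication in 16 of the 32 members, against 47.2% of all genes tested, and lower in the other 16. The most upstream start could be tested in 34 members and 1830 genes, again with 0 calls, and 3 members (8.82%), Pkn, shi and CG11486, had an unadjusted p below 0.05 against 6.78% of all. The upstream share was higher in the Inr-a duplication in Pkn and lower in shi and CG11486, where the background was 3.01% and 3.77%.

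The mean annotated length, weighted by shares, had 0 calls among 48 members and 5362 genes. At an unadjusted p below 0.05 there were 4 members (8.33%, background 8.24%), 2 of them longer and 2 shorter in the Inr-a duplication (background 4.16% and 4.08%). In trol it was 11017 and 11028 bases in the Inr-a duplication and 11145 and 11139 bases in wild type (unadjusted p = 0.00123, adjusted p = 0.228). The libraries of each genotype lay close together, but the difference was only -0.02 on the log2 scale. In cnc it was 4901 and 4960 bases in the Inr-a duplication and 4613 and 4522 bases in wild type (unadjusted p = 0.00924), and in CG43340 3640 and 3649 bases in the Inr-a duplication and 3844 and 3920 bases in wild type (unadjusted p = 0.00969). The members were thus divided evenly, with 25 of 48 longer in the Inr-a duplication.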

How the data were processed

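Transcript abundances had been estimated by the authors with Salmon 1.4.0 against BDGP6 transcripts after trimming of the reads, imported and normalised, and the deposited values are, for each genotype, CPM averaged over its 2 libraries. The authors used DESeq2 for differential expression, which was not run here. A ratio column of the authors was not used. The number of per-sample columns left unused was 0.

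Each deposited mean is the mean of 2 whole counts divided by their library totals. The totals were fitted from low values, and exactly 1 pair of counts gave the mean for 99.7% of Inr-a duplication and 99.4% of wild type transcripts above 0. The others, all at 1003 CPM or more, had several pairs, and their 128 genes, with 0 members among them, were left out. The counts were calculated back from deposited means, so tests were made on a log or share scale and no count model was run.

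Transcripts were summed by symbol and chromosome. Levels were tested with limma 3.58.1 (R 4.3.3) on log2 values of CPM scaled by TMM, with 0.5 added, so that the differences of low genes are understated, for genes with 10 counts at the median depth in 2 libraries and 15 in all. Shares were tested with limma on the arcsine square root, for transcripts with a mean share of at least 5% in genes of at least 5 CPM, and lengths on log2. Ends within 50 bases were joined and tested at mean shares from 5% to 95%. All p were adjusted by Benjamini-Hochberg over all features tested, with a threshold of 0.05. Positions and lengths came from Ensembl BDGP6.54, in which 1096 of the 1105 member transcripts were found, and which may not be the annotation the authors used. Lengths, ends, starts, exons and own sequence rest on it, while levels and transcript shares do not. The main fits of gene level and of transcript share were tested on simulated data, with a spread between libraries that was set and not taken from these data. The fits of lengths, ends, starts and exons were not simulated.

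Named were members past a threshold, the 10 with the largest distance between mean shares and all with another leading transcript among those of at least 20 CPM, the 5 with most transcripts, the 5 most abundant and the first 2 of each role. CAP, Glut1 and pHCl-1 were added after their values were seen, as were the exon comparison and the 95% limit on shares. The members, lists and tests were chosen with earlier results of these data known.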

Additional observations from a re-analysis of the deposited data

How the results depend on the processing

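When libraries were left out singly, genes called for their level numbered between 139 and 1074 and the members called between 0 and 18 (257 and 2 with all libraries), while the members with a higher level in the Inr-a duplication numbered between 44 and 50. Library size alone gave 76 genes and 0 members, and no filter on low counts 59 genes and 0 members. For shares, log2 values gave 95 calls (2 in members) and diffSplice 133 (3 in members) in place of 0, and every setting that left out a library gave 0. A gene mean of at least 1 CPM gave 1 call for length, and joining 3′ ends within 10 bases gave 1 call, neither in members. Genes with every distance between genotypes above those within numbered between 1673 and 1992, and members between 12 and 20, with a library left out, where fewer distances are compared. Mhc and trol lost their calls without wild type library B, by library size alone (log2 difference 1.33 and 1.20) and without the filter. No paired analysis was possible because the deposited means carry no replicate numbers, and the recovered libraries could not be matched to them. The causes were not tested.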
